A study of Mus musculus with 8 samples.

Results

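The genes described here are 37 regulators of chromatin and DNA methylation: Polycomb repressor subunits, writers and erasers of DNA methylation and histone marks, and further regulators mutated in human myelodysplastic syndrome (MDS), a clonal disorder of blood-forming cells. A member was represented by the probe set that the array annotation gives to its symbol alone, and by the one with the highest mean signal where several did. Of the 37 members, 36 had such a probe set among 18193 genes in all, and 34 were tested among 8886 genes whose signal reached 50 on at least 2 arrays. Setbp1 was not analysed here. Tet3, with signals of 2.19 to 18.9, and Cbx8, with signals of 24.1 to 40.8, missed the filter. Cbx7 passed it only through its signals in the G4/G5 CMP pools, so its place among the tested genes is not independent of its level there. Cbx2 passed it mainly through its signals in CMP pools.

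RNA came from 2 mouse bone marrow progenitors, common myeloid progenitors (CMP), which give rise to both the granulocyte-monocyte and the erythroid-megakaryocytic branches, and granulocyte-monocyte progenitors (GMP). The control mice were G0 TERTER/+, labelled normal, and the others were G4/G5 TERTER/ER, labelled as having short telomeres. TERTER is a telomerase reverse transcriptase fused to an oestrogen receptor and is inactive without its ligand. The controls carried this modified allele too, beside an intact one. All mice were male, of a mainly C576BL/6 background (as the labels spell it), and their ages are not given in the sources used here. Each of the 4 groups had 2 arrays, each from 1 pool of cells sorted from 4 mice, so each value below is a pool and not an animal. In such sorted bulk samples, fewer cells of a type and less RNA per cell cannot be told apart.

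Polycomb repressive complex 2 (PRC2) places methyl groups on lysine 27 of histone H3, and Polycomb repressive complex 1 (PRC1) compacts chromatin and ubiquitinates histone H2A. DNA methyltransferases write cytosine methylation, and TET enzymes, which need the product of the isocitrate dehydrogenases, oxidise it. In blood, these factors set the balance between self-renewal and differentiation of stem and progenitor cells, and several of their genes are recurrently mutated in MDS and acute myeloid leukaemia.

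The labelled cell types were checked against marker genes. Summed signals of 10 GMP markers were 7071 and 14943 in the G0 CMP pools, 26501 and 23539 in the G4/G5 CMP pools, and between 33466 and 38984 in the 4 GMP pools. Summed signals of 9 markers of CMP and of erythro-megakaryocytic cells were 2845 to 5775 in the CMP pools and 954 to 1370 in the GMP pools. Both lists separated the labelled cell types, with the G4/G5 CMP pools nearer to GMP on the first list than the G0 CMP pools were. Pool 1 of the G4/G5 CMP stood apart: on the first principal component, with 54.6% of the variance, it lay at -3.58 while the other CMP pools lay between -37.8 and -30.7 and the GMP pools between 19.3 and 33.8. Summed signals of 12 maturing neutrophil markers were 63494 in that pool and 246 to 329 in the other CMP pools, where 1 or 2 of the 12 markers reached a signal of 50. For GMP the same sum came to 1534 and 3498 in G0 and to 33296 and 36494 in G4/G5. The part of these markers in the values below was not tested.

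**Figure D1:**
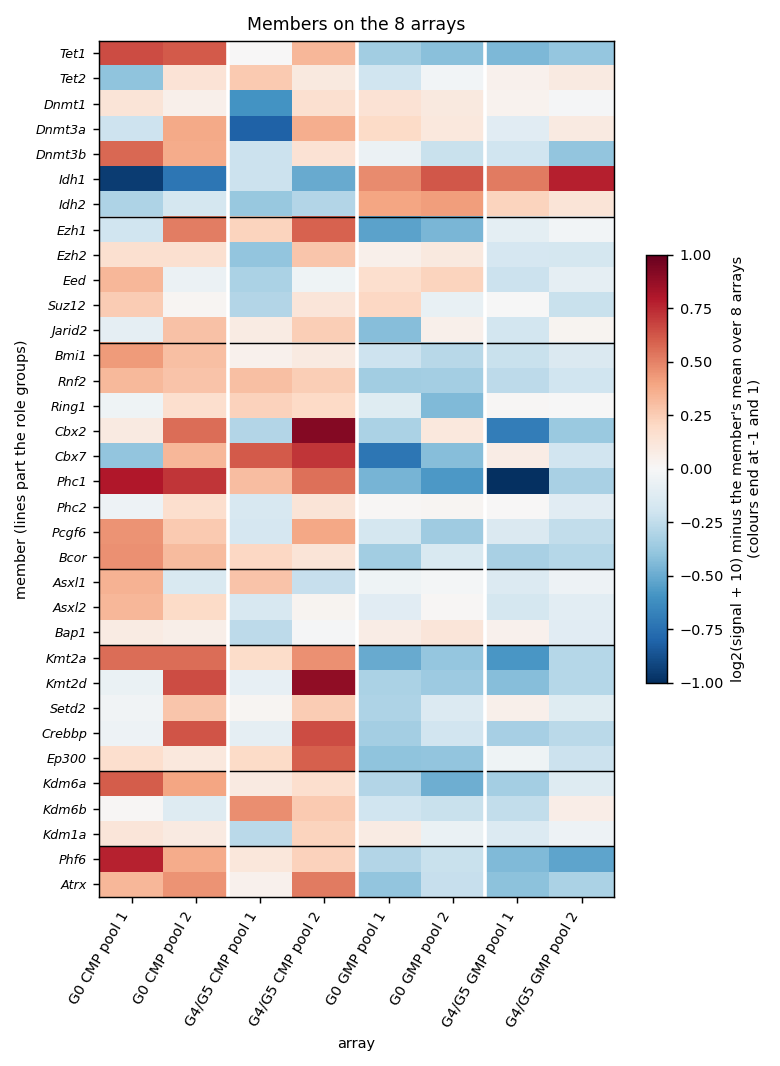
Each row is 1 of the 34 tested members and each column 1 array, and the colour is log2(signal + 10) minus the member's mean over the 8 arrays, with black lines between role groups. The CMP columns on the left are redder for most PRC1 subunits and histone writers, Idh1 and Idh2 run the other way, and the column of G4/G5 CMP pool 1 is bluer than that of pool 2 for 27 of the 34 members.

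With all 8 arrays in the fit, every call among the members was between the cell types. In G0 mice, 13 of the 34 members differed between GMP and CMP at an adjusted p under 0.05 (limma): 2 were higher in GMP, against 10.6% of all genes tested, and 11 were lower, against 10.2%. The members' changes had a median of -0.39 on the log2(signal + 10) scale, and 27 of the 34 lay below 0, while the median over all genes tested was -0.016 and 51.3% lay below 0. The 2 that rose were the isocitrate dehydrogenases Idh1 and Idh2. Those that fell were the PRC1 genes Phc1, Rnf2, Bmi1 and Bcor, the dioxygenase Tet1, the methyltransferases Dnmt3b and Kmt2a, the acetyltransferase Ep300, the demethylase Kdm6a, and Phf6 and Atrx. The count rests on both GMP pools of G0: it was 1 (Idh1) without pool 1, where 0.754% of all genes tested were called, and 3 (Tet1, Idh1 and Kmt2a) without pool 2, where 4.9% were. In both of those fits 27 of 34 members lay below 0.

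In G4/G5 mice, which share no array with the G0 comparison, 7 members differed between GMP and CMP. Idh1 and Idh2 were higher, against 4.19% of all genes tested, and Phc1, Kmt2a, Phf6, Atrx and Rnf2 were lower, against 6.3%. All 7 were also among the 13 of the G0 mice. Of the 34 members 28 lay below 0, with a median of -0.26, against 53.7% and -0.038 for all genes tested. The change in GMP minus the change in CMP between genotypes, which is the same test as that of the cell type difference between genotypes, called 0 members (and 0% of all genes tested), so the smaller count in G4/G5 is not a shown difference. The G4/G5 count was 12 without the CMP pool that stood apart, with 16.2% of all genes tested called in that fit, and 2 (Dnmt1 and Idh1) without the other CMP pool, with 6.84% called. It was 0 without GMP pool 1 and 1 (Phc1) without GMP pool 2, where 0.731% and 1.18% of all genes were called. Without either GMP pool of G0, which enter through the shared estimate of spread, it was 1 (Idh1), against 4.39% and 4.43% of all genes.

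**Figure D2:**
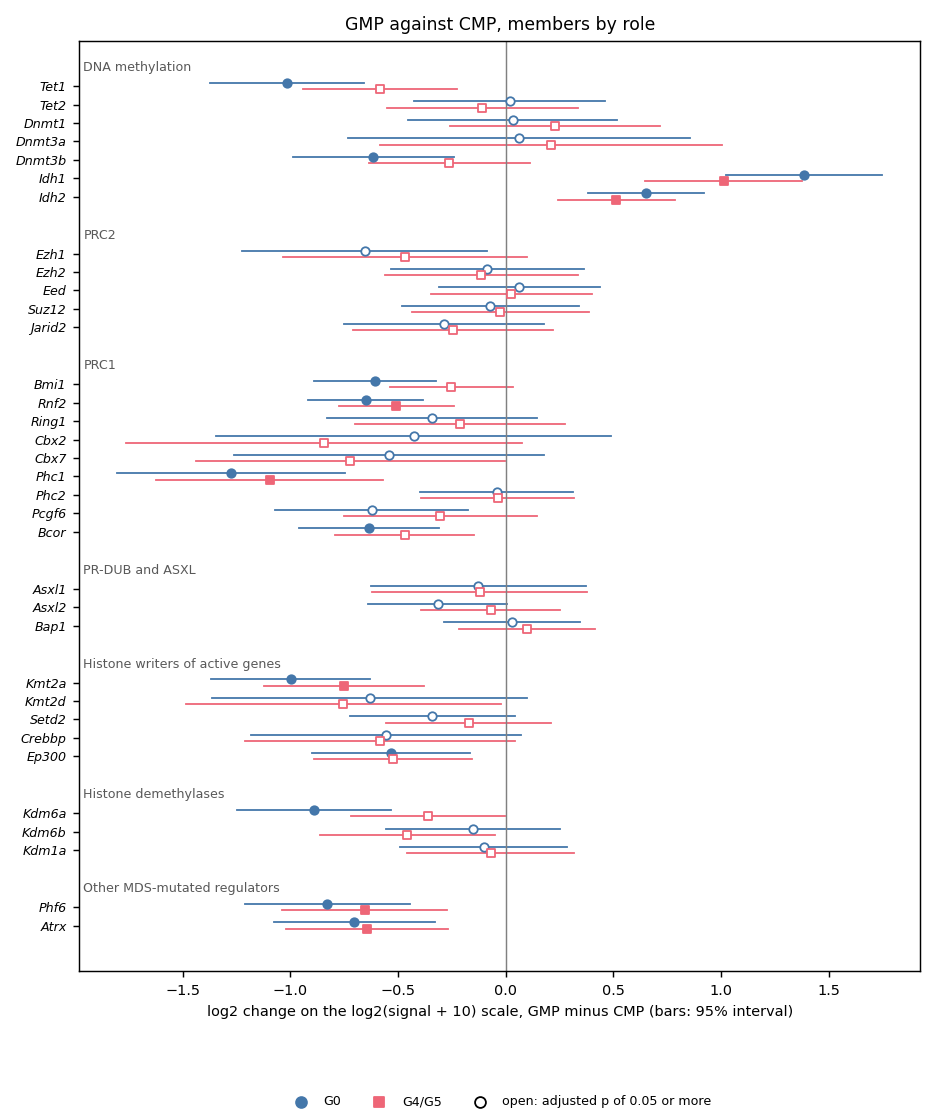
Points are the log2 change from CMP to GMP of each tested member in G0 (circles) and G4/G5 (squares), bars are 95% intervals, and filled points have an adjusted p under 0.05. Idh1 and Idh2 lie to the right of 0 in both genotypes, all 9 tested PRC1 genes lie to the left in both (Phc2 only barely, and to the right in G4/G5 after median centring), and the PRC2 genes other than Ezh1 and Jarid2 lie close to 0.

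Of 8 DNA methylation and demethylation genes, 7 were tested, and in G0 mice 2 rose and 2 fell from CMP to GMP. Idh1, the cytosolic enzyme that makes 2-oxoglutarate from isocitrate, had signals of 406 and 476 in the G0 CMP pools, 681 and 555 in the G4/G5 CMP pools, 1107 and 1224 in the G0 GMP pools and 1141 and 1369 in the G4/G5 GMP pools. Every GMP pool was above every CMP pool, and the log2 change was 1.38 (SE 0.16, adjusted p = 0.0026) in G0 and 1.01 (SE 0.16, adjusted p = 0.01) in G4/G5. Its second probe set moved alike, by 1.47 and 1.02. Idh2, the mitochondrial enzyme, had signals of 665 and 730.2 in the G0 CMP pools, 634 and 672 in the G4/G5 CMP pools, 1091 and 1109 in the G0 GMP pools and 966 and 907 in the G4/G5 GMP pools. The GMP pools were again all above the CMP pools, with log2 changes of 0.65 (SE 0.12, adjusted p = 0.01) in G0 and 0.51 (SE 0.12, adjusted p = 0.033) in G4/G5. A second, dim Idh2 probe set with signals of 39.1 to 53.8 went the other way, by -0.29 and -0.082. With the mean of all its probe sets Idh2 had changes of 0.18 (adjusted p = 0.36) and 0.22 (adjusted p = 0.31), and over all alternatives its call was lost in 3 of 20 in G0 and 11 of 20 in G4/G5.

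Tet1, a dioxygenase that oxidises 5-methylcytosine, had signals of 297 and 289.7 in the G0 CMP pools, 186 and 236 in the G4/G5 CMP pools, 144 and 136 in the G0 GMP pools and 133 and 139.9 in the G4/G5 GMP pools. All CMP pools lay above all GMP pools, and the G4/G5 CMP pools lay below the G0 CMP pools. The GMP minus CMP change was -1.02 (SE 0.16, adjusted p = 0.0064) in G0 and -0.58 (SE 0.16, adjusted p = 0.0503) in G4/G5, where either replicate block gave an adjusted p of 0.0491. Tet2, its relative that is often mutated in MDS, had signals of 164 to 266 and log2 changes of 0.018 in G0 and -0.11 in G4/G5, neither called. Dnmt3b, a de novo DNA methyltransferase, had signals of 862 and 747 in the G0 CMP pools, 494 and 635 in the G4/G5 CMP pools, 552 and 491 in the G0 GMP pools and 499 and 434 in the G4/G5 GMP pools. In G0 the change was -0.61 (SE 0.16, adjusted p = 0.033), while in G4/G5, where the CMP and GMP pools overlapped, it was -0.26 (SE 0.16, adjusted p = 0.31). The other de novo enzyme Dnmt3a (131 to 312) and the maintenance enzyme Dnmt1 (835 to 1414) had log2 changes of 0.06 and 0.031 in G0, with 95% intervals of -0.73 to 0.85 and -0.45 to 0.52. The probe sets of Dnmt3a differed: the others that passed the filter gave -0.43, -0.45, -0.34 and 0.42 in G0, with no test of them.

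None of the 5 PRC2 genes was called between the cell types in either genotype. Ezh2, the main catalytic subunit, had signals of 1085 and 1086 in the G0 CMP pools, 735 and 1177 in the G4/G5 CMP pools, 1004 and 1042 in the G0 GMP pools and 862 and 857 in the G4/G5 GMP pools. Its change in G0 was -0.085, with a 95% interval of -0.53 to 0.36. Eed, which reads methylated lysine 27, had signals of 956 and 727 in the G0 CMP pools, 607 and 738 in the G4/G5 CMP pools, 854 and 889 in the G0 GMP pools and 654 and 712 in the G4/G5 GMP pools, and the change in G0 was 0.063 (-0.31 to 0.44), with the sign turned to -0.068 after quantile normalization. Suz12, the scaffold subunit, had signals of 912 to 1335 and a change of -0.071 (-0.48 to 0.34). Other Suz12 probe sets that passed the filter gave -0.30, -0.38, -0.069, -0.38 and 0.063 in G0, with no test of them. The intervals of the probe sets shown for Ezh2, Eed and Suz12 do not reach the changes of Phc1, Tet1 and Kmt2a. Ezh1, the second catalytic subunit, had signals of 94.2 and 161 in the G0 CMP pools, 129.7 and 169.8 in the G4/G5 CMP pools, 72.5 and 77.2 in the G0 GMP pools and 102 and 107 in the G4/G5 GMP pools. Its GMP pools in G0 were lower than its CMP pools, with a log2 change of -0.66 (SE 0.25, adjusted p = 0.093). The adjusted p was 0.033 with the pool number as a replicate block within cell type. Jarid2, a targeting cofactor, had signals of 232 to 388 and had a log2 change of -0.29 (adjusted p = 0.34) in G0 and -0.24 in G4/G5. Its other probe sets that passed the filter gave 0.062 and -0.080 in G0. In G4/G5 they gave 0.37 and 0.30, against the sign of the one shown, with no test of them.

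All 9 tested members of the 10 PRC1 genes lay below 0 in both genotypes, or 8 in G4/G5 after median centring of the arrays, where Phc2 turned sign. The count includes Cbx7, which passed the filter only through its G4/G5 CMP signals, so its direction in G4/G5 is not independent of the filter. Cbx2 reached 50 on 4 arrays, at 50.2, 73.3 and 97.2 in CMP pools and 50.8 in a GMP pool. The direction of Cbx2 is thus not independent of the filter either. Cbx8, which missed the filter, lay above 0, by 0.21 in G0 and 0.25 in G4/G5, with no test of it. Of the 9, 4 passed the test in G0 and 2 in G4/G5. Phc1, a polyhomeotic subunit that joins PRC1 particles, had signals of 232 and 218 in the G0 CMP pools, 162 and 194 in the G4/G5 CMP pools, 90.9 and 83.3 in the G0 GMP pools and 59.0 and 101 in the G4/G5 GMP pools. The lowest CMP pool was above the highest GMP pool, and the log2 change was -1.28 (SE 0.23, adjusted p = 0.0098) in G0 and -1.10 (SE 0.23, adjusted p = 0.025) in G4/G5. Rnf2, the E3 ligase that ubiquitinates histone H2A, had signals of 703 and 685 in the G0 CMP pools, 692 and 668 in the G4/G5 CMP pools, 437 and 439.8 in the G0 GMP pools and 465 and 485 in the G4/G5 GMP pools. The pools of a group lay close together, and the change was -0.65 (SE 0.12, adjusted p = 0.0096) in G0 and -0.51 (SE 0.12, adjusted p = 0.032) in G4/G5.

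Bmi1, the Polycomb ring finger partner needed for stem cell self-renewal, had signals of 594 and 544 in the G0 CMP pools, 453 and 469 in the G4/G5 CMP pools, 379 and 361 in the G0 GMP pools and 375 and 396 in the G4/G5 GMP pools. It was 1.52-fold lower in the GMP of G0, a log2 change of -0.61 (SE 0.12, adjusted p = 0.014), and the log2 change in G4/G5 was -0.25 (SE 0.12, adjusted p = 0.21). Bcor, a subunit of a variant PRC1 and mutated in MDS, had signals of 325 and 295 in the G0 CMP pools, 272 and 257 in the G4/G5 CMP pools, 182 and 210.0 in the G0 GMP pools and 186 and 191 in the G4/G5 GMP pools. The change was -0.64 (SE 0.14, adjusted p = 0.018) in G0 and -0.47 (SE 0.14, adjusted p = 0.069) in G4/G5. Bcor is represented by a probe set whose name ends in _s_at, a mark of probes that can match several transcripts. Without such probe sets its change in G0 was -1.13. Pcgf6, another variant PRC1 ring finger, had signals of 196 to 349.8 and had a log2 change of -0.62 (SE 0.20, adjusted p = 0.055) in G0. Phc2 (251 to 319) had a log2 change of -0.043, with a 95% interval of -0.40 to 0.31. The chromobox subunits and Ring1 were dim: Cbx2 had signals of 25.1 to 97.2, Cbx7 of 17.6 to 64.5 and Ring1 of 41.4 to 71.8, and none was called.

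The 3 genes of the PR-DUB, a complex that removes ubiquitin from histone H2A, were not called between the cell types. Asxl1, its MDS-mutated cofactor, had signals of 189 to 288, and the deubiquitinase Bap1 had 361 to 473. Their changes in G0 were -0.13 (-0.63 to 0.37) and 0.028 (-0.29 to 0.34). Asxl2, a paralogue of Asxl1, had signals of 252 to 363 and had a log2 change of -0.32 (SE 0.14, adjusted p = 0.14).

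All 5 writers of marks at active genes lay below 0 in both genotypes, and 2 were called in G0. Kmt2a, the histone H3 lysine 4 methyltransferase rearranged in leukaemia, had signals of 366 and 366 in the G0 CMP pools, 281 and 341 in the G4/G5 CMP pools, 171 and 186 in the G0 GMP pools and 161 and 199.97 in the G4/G5 GMP pools. Each GMP pool was far below each CMP pool, and the log2 change was -0.999 (SE 0.16, adjusted p = 0.0073) in G0 and -0.75 (SE 0.16, adjusted p = 0.027) in G4/G5. Ep300, a histone acetyltransferase, had signals of 467 and 447 in the G0 CMP pools, 475 and 632 in the G4/G5 CMP pools, 311 and 314 in the G0 GMP pools and 403 and 356 in the G4/G5 GMP pools. Its change was -0.53 (SE 0.16, adjusted p = 0.048) in G0 and -0.52 (SE 0.16, adjusted p = 0.072) in G4/G5. With the pool number as a replicate block the adjusted p of Ep300 in G0 was 0.0501 or 0.0518, and the call was lost in 12 of 20 alternatives. Its paralogue Crebbp had signals of 362 to 729.5 and a log2 change of -0.56 (SE 0.27, adjusted p = 0.18) in G0 and -0.58 (SE 0.27, adjusted p = 0.20) in G4/G5. The lysine 4 methyltransferase Kmt2d had signals of 259 to 657 and log2 changes of -0.63 (SE 0.32, adjusted p = 0.19) and -0.75 (SE 0.32, adjusted p = 0.16). With a replicate block within cell type both passed the threshold, Crebbp with an adjusted p of 0.021 in G0 and 0.027 in G4/G5 and Kmt2d with 0.022 and 0.021. Setd2, which trimethylates histone H3 lysine 36, had signals of 224 to 340.3 and had a log2 change of -0.34 (SE 0.17, adjusted p = 0.18).

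Among the 3 demethylases, 1 was called. Kdm6a, which removes methyl groups from histone H3 lysine 27 and so opposes PRC2, had signals of 358 and 307 in the G0 CMP pools, 247 and 261 in the G4/G5 CMP pools, 187 and 162 in the G0 GMP pools and 181 and 211 in the G4/G5 GMP pools. The change was -0.89 (SE 0.16, adjusted p = 0.009) in G0 and -0.36 (SE 0.16, adjusted p = 0.17) in G4/G5. Kdm6b, with the same substrate, had signals of 117 and 106 in the G0 CMP pools, 165 and 142 in the G4/G5 CMP pools, 100.2 and 98.5 in the G0 GMP pools and 96.6 and 123 in the G4/G5 GMP pools, and log2 changes of -0.15 in G0 and -0.46 in G4/G5, neither called. Kdm1a, which demethylates histone H3 lysine 4, had signals of 563 to 796 and had a log2 change of -0.10 (-0.49 to 0.28) in G0.

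Phf6, a plant homeodomain protein mutated in leukaemia and MDS, had signals of 336 and 253 in the G0 CMP pools, 209.7 and 228 in the G4/G5 CMP pools, 156 and 164 in the G0 GMP pools and 139.7 and 131 in the G4/G5 GMP pools. All 4 CMP pools were above all 4 GMP pools, with changes of -0.83 (SE 0.17, adjusted p = 0.014) in G0 and -0.65 (SE 0.17, adjusted p = 0.044) in G4/G5. Atrx, a chromatin remodeller whose mutation accompanies alpha-thalassaemia in MDS, had signals of 1897 and 2058 in the G0 CMP pools, 1554 and 2162 in the G4/G5 CMP pools, 1144 and 1279 in the G0 GMP pools and 1130.2 and 1209 in the G4/G5 GMP pools. The changes were -0.70 (SE 0.16, adjusted p = 0.021) in G0 and -0.64 (SE 0.16, adjusted p = 0.043) in G4/G5. Over all members called in G0, 16 of 17 further probe sets that passed the filter had the same sign as the one shown, the exception being Idh2. Over those called in G4/G5 it was 7 of 9, the exceptions being Idh2 and 1 probe set of Atrx. The further Atrx probe sets gave -0.27, 0.056, -0.54 and -0.70 in G4/G5, with no test of them.

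**Figure D3:**
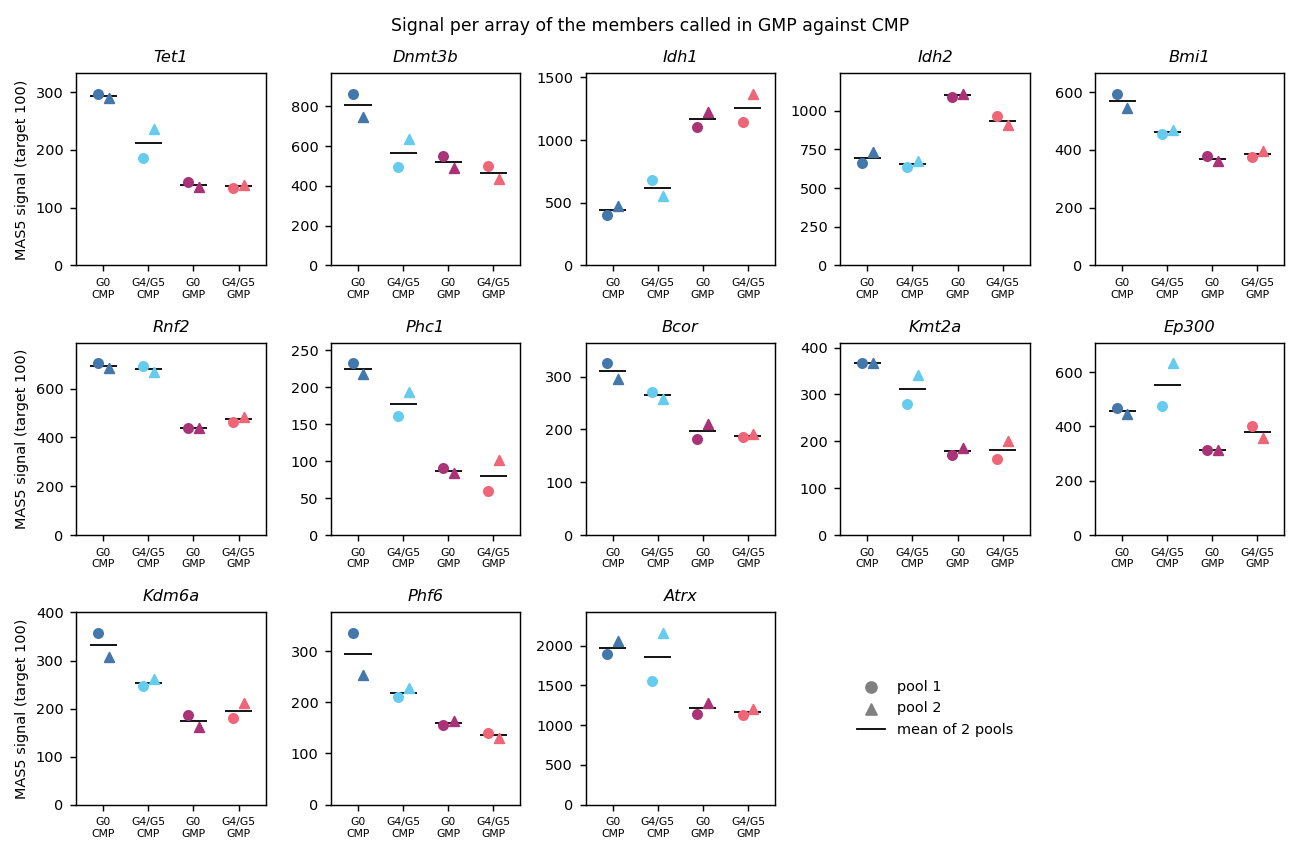
Each panel gives the MAS5 signal of 1 of the 13 members called between GMP and CMP in G0, with circles for pool 1, triangles for pool 2 and a line at the mean of the pools of each group. Idh1 and Idh2 step up from the CMP to the GMP groups and the other 11 step down.

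The promoters of the members were read from RefSeq windows of the GRCm38.p6 build, each of 300 bases and mostly upstream of an annotated start, for 33 of the 36 genes. The 42 windows had a median G+C content of 65.2%, against 52.7% over all 32851 windows, and a median of 23.5 CpG dinucleotides against 7. Windows were searched on both strands for 7 motifs: CCGGAAGT (ETS), TTTCGCGC or TTTGGCGC (E2F), GCGCANGCG (NRF1), AAGATGGCG (YY1), TGACGTCA (CRE), CACGTG (E-box) and CCAAT. The E2F letters were in the windows of 2 of the 33 members, Dnmt1 and Ezh2, and in those of 0.929% of all genes. For NRF1 it was 6 members, or 18.2%, against 7.03%, for the E-box 7 members against 8.09%, and for CCAAT 13 members against 41.1%. ETS and CRE letters were each in 1 member and YY1 letters in 0, against 4.31%, 2.03% and 1.64% of all genes. Of the 10 members lower in G0 GMP that had a window, 0 held the ETS, E2F, NRF1, YY1 or CRE letters, 2 held an E-box and 1 held CCAAT. A match describes letters and not a bound site.

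The windows of 5 members are printed 5′ to 3′, with every match to a searched motif in capitals (overlapping matches run together). Phc1 and Tet1 had the largest falls from CMP to GMP in G0, and their windows hold none of the letters searched. Idh1 had the largest rise, and the more upstream of its 2 windows holds a CCAAT. Dnmt1 and Ezh2 are shown for the E2F letters. Neither was called between genotypes with all arrays, and their direction in CMP depended on the G4/G5 CMP pool used. A link of these values to the letters was not tested. The Dnmt1 window is the most downstream of 3. All 5 genes lie on the minus strand.
Phc1, chr6:122340178-122340477: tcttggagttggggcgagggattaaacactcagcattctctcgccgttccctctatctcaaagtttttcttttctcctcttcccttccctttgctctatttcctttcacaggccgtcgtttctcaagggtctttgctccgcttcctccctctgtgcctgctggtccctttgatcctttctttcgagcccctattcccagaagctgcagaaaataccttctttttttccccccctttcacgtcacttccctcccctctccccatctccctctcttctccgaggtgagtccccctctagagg
Tet1, chr10:62887275-62887574: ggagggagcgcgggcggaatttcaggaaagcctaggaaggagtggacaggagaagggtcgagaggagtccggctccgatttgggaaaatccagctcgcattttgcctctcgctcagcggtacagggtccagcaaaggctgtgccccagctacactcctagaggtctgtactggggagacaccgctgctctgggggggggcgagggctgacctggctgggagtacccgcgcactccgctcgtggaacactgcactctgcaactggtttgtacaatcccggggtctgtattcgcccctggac
Idh1, chr1:65186430-65186729: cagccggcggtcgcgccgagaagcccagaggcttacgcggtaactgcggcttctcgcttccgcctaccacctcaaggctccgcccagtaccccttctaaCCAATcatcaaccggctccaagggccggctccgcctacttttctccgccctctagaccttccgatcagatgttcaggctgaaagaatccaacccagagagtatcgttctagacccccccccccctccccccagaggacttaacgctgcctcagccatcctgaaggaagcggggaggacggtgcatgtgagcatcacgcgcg
Dnmt1, chr9:20952574-20952873: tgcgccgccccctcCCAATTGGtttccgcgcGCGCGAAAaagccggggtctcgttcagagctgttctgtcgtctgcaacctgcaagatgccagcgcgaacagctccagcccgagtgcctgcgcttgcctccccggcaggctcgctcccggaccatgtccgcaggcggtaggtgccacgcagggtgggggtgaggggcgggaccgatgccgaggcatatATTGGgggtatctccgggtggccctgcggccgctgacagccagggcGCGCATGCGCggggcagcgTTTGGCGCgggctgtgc
Ezh2, chr6:47594981-47595280: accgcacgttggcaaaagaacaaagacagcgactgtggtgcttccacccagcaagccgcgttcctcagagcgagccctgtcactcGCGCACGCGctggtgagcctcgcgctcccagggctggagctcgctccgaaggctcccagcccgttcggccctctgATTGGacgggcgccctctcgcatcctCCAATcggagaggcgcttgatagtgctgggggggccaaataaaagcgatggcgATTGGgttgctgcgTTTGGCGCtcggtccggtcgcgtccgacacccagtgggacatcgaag

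Between genotypes no member passed the test. In CMP 0 of 34 were called, against 0.0113% of all genes tested, in GMP 0 against 0%, and for the mean of both cell types 0 against 0.0338%. At an unadjusted p under 0.05 the counts were 8 in CMP, against 13.4% of all genes tested, 0 in GMP, against 7.87%, and 6 for the mean, against 17.8%. The smallest adjusted p of any member was 0.31 in CMP, 0.63 in GMP and 0.22 for the mean (limma). The median standard error of a member's change was 0.17 on the log2 scale within a cell type.

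In CMP 24 of 34 members were below 0, with a median log2 change of -0.12, against 44.4% and 0.041 for all genes tested. The groups did not overlap for 5 members that were higher in G4/G5, against 21.7% of all genes, and for 10 that were lower, against 14.9%. The 5 include Cbx7, which passed the filter only through its G4/G5 CMP pools. In GMP 20 of 34 members were below 0, with a median of -0.043, against 49.1% and 0.0063 for all genes. There the groups did not overlap for 7 higher members, against 28.8% of all genes, and for 10 lower ones, against 26.6%. The 2 G4/G5 CMP pools differed in the neutrophil marker sum given above, 63494 and 246, and both G4/G5 GMP pools exceeded both G0 GMP pools in it. Summed signals of 16 cell cycle genes were 20536 in G4/G5 CMP pool 1 and 25459 to 28262 in the other CMP pools. For GMP this sum came to 31150 and 28680 in the G0 pools, against 27082 and 24704 in the G4/G5 pools, so both G4/G5 pools lay below both G0 pools. The part of either sum in the genotype values was not tested.

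**Figure D4:**
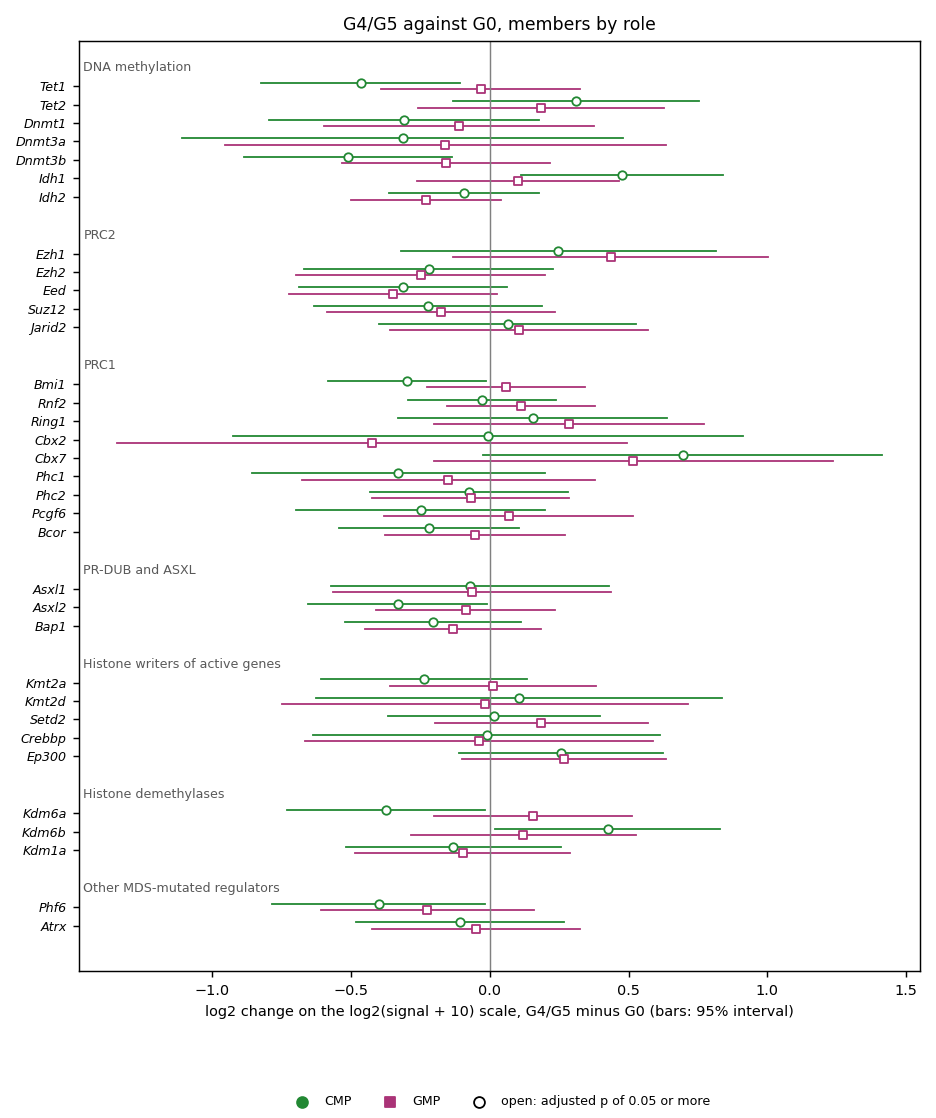
Points are the log2 change from G0 to G4/G5 of each tested member in CMP (circles) and GMP (squares), bars are 95% intervals, and every point is open because no adjusted p was under 0.05. Cbx7 lies furthest to the right in both cell types, Dnmt3b furthest to the left in CMP and Cbx2 in GMP. Cbx7 passed the signal filter only through its G4/G5 CMP pools.

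The members furthest below 0 in CMP were Dnmt3b, Tet1 and Phf6, whose signals are given above. Dnmt3b had a log2 change of -0.51 (SE 0.16, adjusted p = 0.31), Tet1 of -0.47 (SE 0.16, adjusted p = 0.31) and Phf6 of -0.40 (SE 0.17, adjusted p = 0.36), and for each of them both G4/G5 CMP pools lay below both G0 CMP pools. In GMP their log2 changes were -0.16, -0.033 and -0.23. These 3 were also lower in GMP than in CMP in G0 mice, a comparison that uses the same G0 CMP arrays.

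The members furthest above 0 in CMP were Cbx7, Idh1 and Kdm6b. Cbx7, a chromobox subunit that binds methylated lysine 27, had signals of 24.7 and 47.1 in the G0 CMP pools, 59.6 and 64.5 in the G4/G5 CMP pools, 17.6 and 23.8 in the G0 GMP pools and 37.8 and 29.9 in the G4/G5 GMP pools. The G4/G5 pools lay above the G0 pools in both cell types, by 0.69 (SE 0.31, adjusted p = 0.38) in CMP and 0.52 (SE 0.31, adjusted p = 0.68) in GMP, at signals near or below the filter. Cbx7 passed the filter only through its G4/G5 CMP pools, so its higher place in CMP is not independent of the filter. Idh1 had a log2 change of 0.47 (SE 0.16, adjusted p = 0.31) in CMP and 0.10 (SE 0.16, adjusted p = 0.87) in GMP. Kdm6b had a log2 change of 0.42 (SE 0.18, adjusted p = 0.36) in CMP and 0.12 (SE 0.18, adjusted p = 0.86) in GMP. A second Kdm6b probe set, with signals of 81.7 to 177, went the other way, by -0.10 in CMP and -0.27 in GMP, with no test of it.

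In GMP the lowest were Cbx2, Eed and Ezh2. Cbx2, a chromobox subunit, had signals of 50.2 and 73.3 in the G0 CMP pools, 36.4 and 97.2 in the G4/G5 CMP pools, 35.5 and 50.8 in the G0 GMP pools and 25.1 and 33.9 in the G4/G5 GMP pools. Its change in GMP was -0.42 (SE 0.40, adjusted p = 0.79), and its CMP pools of G4/G5 lay on either side of those of G0. Eed had a log2 change of -0.35 (SE 0.16, adjusted p = 0.63) in GMP and -0.31 (SE 0.16, adjusted p = 0.45) in CMP, and Ezh2 had -0.25 (SE 0.20, adjusted p = 0.74) and -0.22 (SE 0.20, adjusted p = 0.66). Besides Cbx7, the highest in GMP were Ezh1, at 0.44 (SE 0.25, adjusted p = 0.66), and Ring1, the second H2A ligase, at 0.28 (SE 0.21, adjusted p = 0.73). Ring1 had signals of 57.7 and 68.2 in the G0 CMP pools, 71.8 and 70.1 in the G4/G5 CMP pools, 54.0 and 41.4 in the G0 GMP pools and 60.1 and 59.6 in the G4/G5 GMP pools. Ezh1 and Ezh2, the alternative catalytic subunits of PRC2, lay on opposite sides of 0 in both cell types with all arrays. Their difference was not tested. In CMP, Ezh1 turned to -0.11 without G0 CMP pool 1, and Ezh2 turned to 0.12 without G4/G5 CMP pool 1.

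For the mean of both cell types the lowest were Dnmt3b at -0.33 (SE 0.12, adjusted p = 0.22), Eed at -0.33 (SE 0.12, adjusted p = 0.22) and Phf6 at -0.31 (SE 0.12, adjusted p = 0.24). The highest were Cbx7 at 0.61 (SE 0.22, adjusted p = 0.23), Ezh1 at 0.34 (SE 0.18, adjusted p = 0.35) and Idh1 at 0.29 (SE 0.11, adjusted p = 0.25). The mean of Cbx7 includes its change in CMP, which is not independent of the filter. In the test of the difference between cell types, the furthest above 0 were Kdm6a at 0.53, Tet1 at 0.43 and Bmi1 at 0.36. The furthest below were Cbx2 at -0.42, Idh1 at -0.37 and Kdm6b at -0.30, and no adjusted p of any member was under 0.99. At an unadjusted p under 0.05 there was 1 member, Kdm6a, against 3.98% of all genes. The Kdm6a probe set shown changed by -0.37 in CMP and 0.16 in GMP. Of the others that passed the filter, 1 gave -0.13 and -0.069, and a dimmer 1 gave -0.64 and 0.15, with no test of them.

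The values in CMP depended on which pools were used, in both genotypes. Within the G4/G5 CMP 27 of 34 members were lower in pool 1 than in pool 2, with a median difference of -0.26, against 55.5% and -0.055 for all genes tested. Dnmt1 had signals of 1386 and 1315 in the G0 CMP pools, 835 and 1414 in the G4/G5 CMP pools, 1406 and 1354 in the G0 GMP pools and 1296 and 1256 in the G4/G5 GMP pools. Pool 1 of G4/G5 CMP was the lowest of the 8 arrays for Dnmt1 and for Ezh2, while pool 2 was the highest for both. Without pool 1, 15 members lay below 0 in CMP, with a median of 0.069, against 40.7% of all genes below 0, and Dnmt1 had a log2 change of 0.067 and Ezh2 of 0.12. Without pool 2, 26 lay below 0, with a median of -0.36, against 48.8% of all genes below 0. In that fit 4.79% of all genes were called, and 2 members were called lower, Dnmt1 at -0.69 (adjusted p = 0.026) and Ezh2 at -0.56 (adjusted p = 0.049). There the remaining G4/G5 CMP pool was assumed to vary like the other groups, and it is the pool with the high neutrophil marker sum and the low cell cycle sum. Without G0 CMP pool 1, 27 members lay below 0, against 48.2% of all genes, and without G0 CMP pool 2 it was 21, against 43.6%. Without G0 CMP pool 1 the log2 change in CMP was -0.20 for Phf6, 0.33 for Cbx7 and -0.11 for Ezh1, whose sign turned from the 0.25 of all arrays, and the mean change of Ezh1 over both cell types was 0.16.

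**Figure D5:**
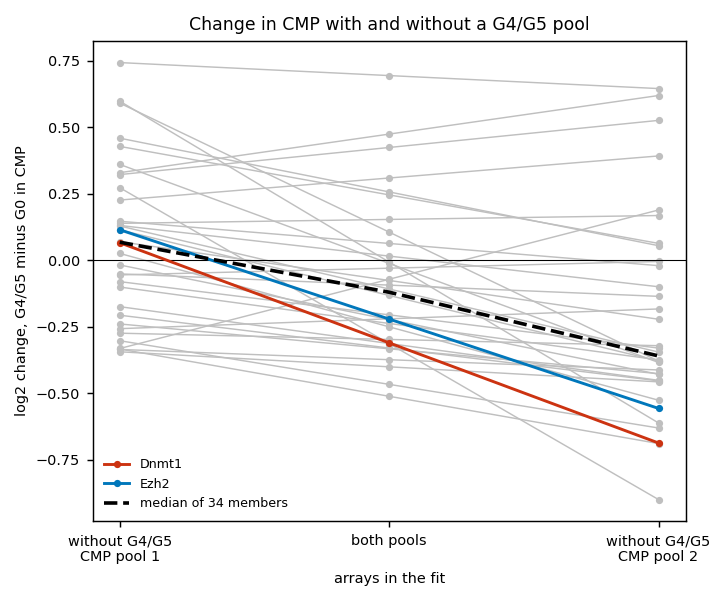
Lines join the log2 change from G0 to G4/G5 in CMP of each of the 34 tested members in fits without G4/G5 CMP pool 1, with both pools, and without pool 2, and the dashed line is their median. The median passes from 0.069 through -0.12 to -0.36, and Dnmt1 (red) and Ezh2 (blue) cross 0.

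Of 40 further probe sets in 24 genes, 33 had the sign of the one shown for G4/G5 against G0 in CMP, 24 in GMP, 30 for GMP against CMP in G0 and 30 in G4/G5. For Atrx in CMP the probe set shown gave -0.11, and the 4 others that passed the filter gave -0.90, -1.05, -0.84 and -0.37, with no test of them.

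A further 52 genes of the same complexes and marks were listed, and 44 were tested. From CMP to GMP in G0, 1 rose and 8 fell, against 10.6% and 10.2% of all genes tested. Dpy30, a subunit shared by lysine 4 methyltransferase complexes, rose by 0.73 (SE 0.13, adjusted p = 0.0087). The largest falls were those of Scmh1, a PRC1-associated protein, at -1.21 (SE 0.24, adjusted p = 0.014), of Kdm5a, a lysine 4 demethylase, at -0.98 (SE 0.19, adjusted p = 0.011), and of its relative Kdm5b at -0.92 (SE 0.18, adjusted p = 0.013). In G4/G5, 0 rose and 3 fell, against 4.19% and 6.3%: Kdm5b at -0.87 (SE 0.18, adjusted p = 0.024), the lysine 4 methyltransferase Kmt2c at -0.72 (SE 0.17, adjusted p = 0.037) and the lysine 36 methyltransferase Nsd3 at -0.63 (SE 0.14, adjusted p = 0.031). Between genotypes 0 of the 44 were called in CMP, GMP, the mean or the difference, against 0.0113%, 0%, 0.0338% and 0% of all genes tested. Of the 44, 31 were below 0 in CMP and 28 in GMP, against 44.4% and 49.1% of all genes.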

How the data were processed

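RNA of sorted CMP and GMP was extracted with Trizol, and 5 to 10 ng of RNA from 5000 to 20000 cells were labelled with biotin for Affymetrix Mouse Genome 430 2.0 arrays, per the labels' protocols. The deposited values were probe-set intensities (MAS5 signals, per the submitters' processing notes), which the authors scaled to a target of 100 per array, per the series text. The trimmed mean of each array was 100.001. Median signals were 17.4 to 18.5 in the CMP arrays and 14.3 to 15.7 in the GMP arrays. Of 45101 probe sets, 34.2% to 35.2% reached a signal of 50 in CMP and 31.6% to 32.7% in GMP. The number of arrays limits the precision. The sources used here give no detection calls, age of the mice or genome build of the probe sets.

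Fold changes were computed on log2(signal + 10), which understates the change of dim genes. Of the probe sets, 34945 carried a single symbol in the platform annotation, 932 carried several and 9160 carried none, and 64 controls were dropped. Testing required a signal of 50 on 2 or more arrays in a probe set with a single symbol, and each gene was represented by its brightest probe set on average. Signals of different probe sets were not compared. One mean per group was fitted to 8 arrays (4 residual degrees of freedom) with limma 3.58.1 in R 4.3.3, using an intensity trend. Benjamini-Hochberg adjustment ran over 8886 genes. Every adjusted p is limma's, and a gene is called where it is under 0.05. Genotypes were compared in CMP, in GMP, in the mean of both and in the difference of both, and cell types within each genotype. The fit was tested on simulated data. Promoters, motifs and figures used Python 3.11.15, pandas 2.3.3 and matplotlib 3.10.9.

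The series text pairs the pools of G0 and G4/G5 that share a number. Deviations from the group means correlated at 0.25 between such pools in CMP and 0.14 in GMP, and between CMP and GMP pools of the same number at 0.22 in G0 and 0.035 in G4/G5. Fits with the pool number as a replicate block were alternatives, beside other pseudocounts, filters, normalizations and probe-set rules, and each array was left out in turn. The sources used here do not say if CMP and GMP pools of a number share mice, in which case the cell type comparisons would rest on fewer independent units.

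The members, the further 52 genes and the marker lists were chosen with earlier results of these data known. Signals of all pools are given for members called in any comparison, for the 3 highest and the 3 lowest in each genotype comparison, and for the 3 highest and 3 lowest in GMP against CMP in G0. Dnmt1 was added after its values were seen. Of the other genes, those called are named, up to 3 per direction. Motifs were chosen after the array values were seen.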

Additional observations from a re-analysis of the deposited data

How the results depend on the processing

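The count of members called between GMP and CMP in G0 was 13 and ran from 11 to 15 under the alternatives that kept all arrays, 15 with the pool number as a replicate block within cell type and 12 with a block shared by the cell types. With 1 array left out it ran from 1 to 14. In G4/G5 the count of 7 became 4 with no filter on signal, 4 with the mean of all probe sets of a gene, 3 with no intensity trend and 1 with only the arrays of the comparison. It was 10 and 8 with the 2 replicate blocks, and 0 to 12 with 1 array left out. The counts called between genotypes were 0 under every alternative that kept all arrays, and 0 to 2 in CMP and for the mean with 1 array left out. The members below 0 in CMP, 24, ran from 15 to 27 with 1 array left out, and those in GMP, 20, from 18 to 23. The block changed no other call than those of Ep300, Ezh1, Kmt2d and Crebbp in G0 and of Tet1, Kmt2d and Crebbp in G4/G5. The difference of Cbx2 between cell types turned to 0.19 without G4/G5 CMP pool 2, and ran from -1.02 to 0.19 with 1 array left out. The change of Eed from CMP to GMP in G0 turned to -0.068 with quantile normalization and ran from -0.13 to 0.26 with 1 array left out. Dnmt1 and Bap1 also turned below 0 in G0 with quantile normalization. From CMP to GMP, 30 of 34 members then lay below 0 in G0 and 29 in G4/G5. With median centring it was 27 and 26. The cause of these shifts was not tested, and leaving out an array also leaves fewer samples. Of the values of single members, 781 kept their direction and side of the threshold, and 93 kept the direction and lost the call. Fits to only the arrays of a comparison give no value for the mean and the difference of the genotype effects. Without probe sets ending in _x_at or _s_at, Idh1 had none left.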

Other observations

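Several members differed between the pool numbers in CMP of both genotypes alike. They were singled out after their values were seen, and the differences between pool numbers were not tested. Kmt2d had signals of 335 and 558 in pools 1 and 2 of the G0 CMP and 331 and 657 in those of the G4/G5 CMP. Crebbp had 445 and 718 and 431 and 729.5, and Ezh1 94.2 and 161 and 129.7 and 169.8. For these 3 genes pool 2 was the higher in each genotype, and in GMP the pools lay closer together, at 281 and 271 and 259 and 287 for Kmt2d and 362 and 402 and 363 and 379.7 for Crebbp. The probe set shown for Asxl1 went the other way, with 288 and 201 in the G0 CMP pools and 276 and 189 in the G4/G5 CMP pools. A second Asxl1 probe set that passed the filter did not: it had 129 and 196 in the G0 CMP pools and 166 and 184 in the G4/G5 CMP pools. With the pool number as a replicate block within cell type, Kmt2d and Crebbp passed the threshold between GMP and CMP in both genotypes. That block takes out the very difference for which these genes were singled out here, so the result is not independent of their choice.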
